A study of Mus musculus with 8 samples.

Results

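Chemokines and their receptors were followed in the livers of ovariectomized (OVX) mice on 2 diets. The genes were taken by symbol: every probe set whose annotation names exactly 1 gene, with a symbol that begins with Ccl, Cxcl, Xcl, Ccr, Cxcr or Xcr and a digit, or with Cx3c. This gave 52 of the 19938 genes on the arrays, 34 ligands and 18 receptors. A gene named by several probe sets is represented by the brightest of them, by its mean over all 8 arrays. All mice were female C57B1/6J, ovariectomized at 7 weeks of age as a model of postmenopausal women, and were placed on their diet 1 week after surgery for 3 months. The HFD group (4 mice) received a high fat diet, and the HFD+WBM group (4 mice) received a high fat diet that held powder of white button mushroom, Agaricus bisporus, with less corn starch, so that the diets did not differ by the powder alone. Both groups therefore share the operation and high fat feeding, and no sham-operated or lean mouse is on the arrays. Each diet group had 8 mice, of which 4 were put on arrays, and the sources used here do not say how these were chosen. Each array holds the RNA of 1 liver specimen, hybridized to an Affymetrix Mouse Gene 1.0 ST chip, and values are log2 signals. A log2 signal of one probe set cannot be set against that of another as an amount of RNA. The brightness of a probe set is given as its percentile among the 19938 genes, because dim probe sets were measured with a wider spread.

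Chemokines are small secreted proteins that bind seven-helix receptors on leukocytes and draw these cells along a gradient. They are named by the spacing of their first cysteines (CC, CXC, CX3C and XC), and most receptors take several ligands. In the liver, Kupffer cells, sinusoidal endothelium, stellate cells and hepatocytes can all make them, and the CCL2 to CCR2 route is known for bringing blood monocytes into fatty liver, whereas CXCL9, CXCL10 and CXCL11 are induced by interferon and draw CXCR3-bearing T cells and NK cells.

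Of the 52 genes, 5 were lower and 5 were higher in the HFD+WBM livers at p under 0.05 before adjustment, by limma fitted over all genes, which is the rule for every gene called lower, higher, fell, rose or passed below. The lower ones were the ligands Cxcl11, Ccl6, Ccl19 and Cxcl16 and the receptor Ccr2. The higher ones were the ligands Ccl12, Cxcl17, Ccl26, Cxcl14 and Ccl7. Among all 19938 genes, 6.90% were lower and 4.85% higher by the same rule, against 9.62% of the chemokine genes in each direction. All 10 changes were smaller than 2-fold, ranging from 1.34-fold (Ccl7) to 1.87-fold (Ccl12), so that 0 chemokine genes passed both thresholds of the study (p under 0.05 and at least 2-fold), which 0.762% of all genes passed. After Benjamini-Hochberg adjustment in limma over all genes, 0 of the 52 and 0% of all genes were under 0.05, and the adjusted p of the 10 genes lay between 0.366 and 0.402. Without the sharing of spread between genes, each gene being tested on its own values, 4 were lower and 4 higher before adjustment and 0 passed after it. By that test 1528 of all 19938 genes were lower and 1068 higher before adjustment. The HFD and HFD+WBM values did not overlap for 4 of the lower genes (Cxcl11, Ccl6, Ccl19 and Cxcl16) and for 1 of the higher ones (Cxcl17). Such a separation was seen downward in 5.02% and upward in 3.21% of all genes. For these 5 genes the exact two-sided permutation p over the 70 divisions of the 8 mice was 0.0286, the smallest it can give. It was 0.0571 for Ccl12, Ccr2, Ccl26 and Cxcl14 and 0.0857 for Ccl7.

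The other 42 genes did not pass, 30 of them with an estimate above 0 and 12 below. The median log2 change of the 52 genes was 0.06, beside 0.01 for all genes, and 32 of the 52 estimates were smaller than 0.3 in size. Ligands and receptors had close medians, 0.06 and 0.07. The calls fell mostly on ligands, with 4 lower and 5 higher of 34, against 1 lower and 0 higher of 18 receptors. In whole liver, fewer cells of a type and less RNA per cell cannot be told apart.

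**Figure D1:**
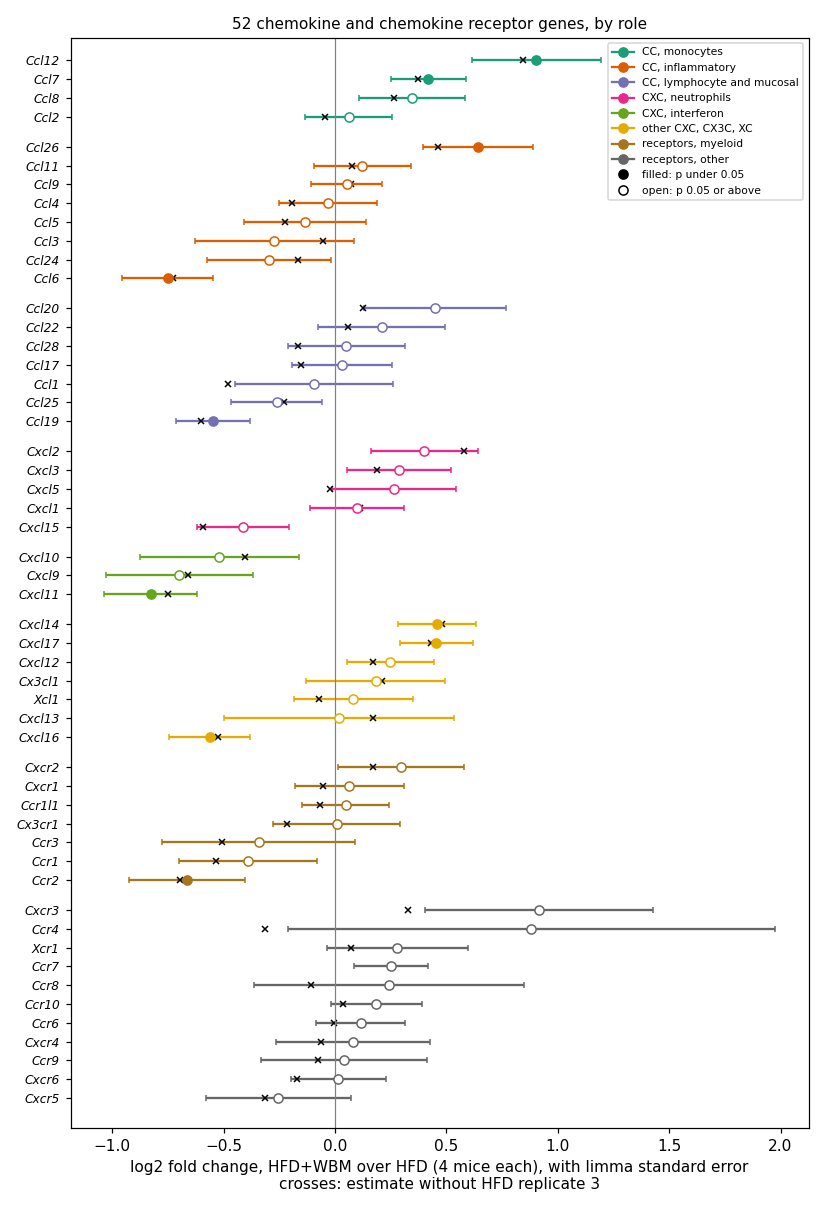
Log2 fold change of each of the 52 genes, HFD+WBM over HFD (4 mice each), as circles with the limma standard error, in groups by role. Filled circles mark the 10 genes with p under 0.05, which lie between -0.83 and 0.90, and crosses give the estimate without HFD replicate 3, which lies left of the circle for most receptors.

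The arrays agreed closely, with correlations between 0.920 and 0.973 and medians between 7.04 and 7.22. HFD replicate 3 stood apart from the other 7 arrays: the SD of its genes around the mean of the other arrays was 0.68, against 0.38 to 0.50 for the others. This array had the lowest HFD value for 27 of the 52 chemokine genes, 23 of which were dimmer than the median gene, and 13 of which were receptors. Without it, 21 rather than 35 of the 52 estimates were above 0, the median moved to -0.06, and 14 genes turned from above to below 0 while 0 turned the other way. Of all genes, 50.7% had an estimate above 0 with this array and 44.8% without it. At p under 0.05, 7 chemokine genes were lower and 4 higher without it, with Ccl1 (-0.48) and Cxcl15 (-0.59) joining the lower and Cxcl2 (0.58) the higher, while Ccl26 and Ccl7 were lost. Of all genes, 6.42% were lower and 5.30% higher without it. The other 8 of the 10 called genes passed with and without this array.

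Signal level set how finely a change could be seen. Of the 52 genes, 16 were brighter than the median of all genes (7.27), 14 of them ligands and 2 receptors (Ccr7 and Cxcr4), and 36 were dimmer. The median SD within groups was 0.28 for the brighter chemokine genes and 0.42 for the dimmer, beside 0.22 and 0.41 for all genes. Among the 10 called genes, Ccl6, Ccl19, Cxcl16, Cxcl17 and Ccl7 were above the median level, and Cxcl11, Ccr2, Ccl12, Ccl26 and Cxcl14 below it.

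**Figure D2:**
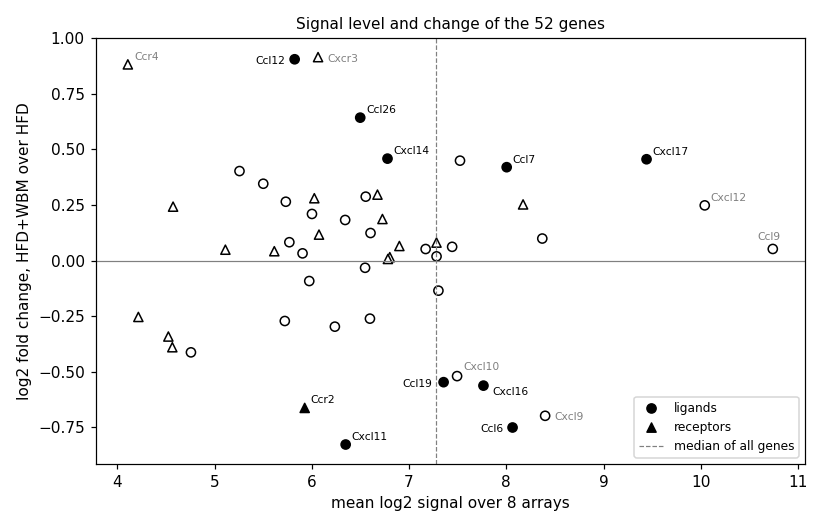
Log2 fold change of the 52 genes (HFD+WBM over HFD) against their mean log2 signal over 8 arrays, with ligands as circles, receptors as triangles and filled symbols at p under 0.05. The broken line marks the median of all genes at 7.27, and 16 of the 18 receptors lie to its left.

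All 3 interferon-inducible CXC chemokines had estimates below 0, and 1 of the 3 passed. Cxcl11 fell by 0.83 on the log2 scale (1.77-fold lower, SE 0.21, 95% confidence interval -1.30 to -0.36). Its log2 signals were 7.05, 6.69, 7.00 and 6.31 in HFD replicates 1 to 4 and 6.27, 5.87, 5.95 and 5.65 in HFD+WBM replicates 1 to 4. Every HFD+WBM liver was below every HFD liver, with a gap of the lowest HFD liver (6.31) over the highest HFD+WBM liver (6.27) far narrower than the SD of either group (0.34 and 0.26). The Cxcl11 probe set stood at percentile 29.3. This is an RNA signal, and whether these mice make a working CXCL11 protein was not examined. Cxcl9, much brighter at percentile 71.7, had 9.25, 8.17, 8.87 and 8.70 in HFD and 8.57, 8.58, 7.36 and 7.70 in HFD+WBM. Its groups overlapped through HFD replicate 2, and the estimate of -0.70 did not pass (95% confidence interval -1.43 to 0.04). Cxcl10, at percentile 54.9, had the same low replicate, with 8.23, 6.75, 8.09 and 7.94 in HFD and 7.54, 7.57, 6.50 and 7.32 in HFD+WBM. Its estimate was -0.52 (95% confidence interval -1.32 to 0.28). Without HFD replicate 2 both passed. The mean of the 3 genes lay between 7.20 and 8.18 in HFD mice and between 6.60 and 7.46 in HFD+WBM mice, with a median log2 change of -0.70.

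Their receptor Cxcr3, at percentile 23.6, marks activated T cells and NK cells. It had an estimate of 0.91 in the other direction (95% confidence interval -0.23 to 2.06). Its size depended on 1 array. HFD values were 6.46, 6.39, 3.85 and 5.73, HFD+WBM values 6.47, 6.89, 6.56 and 6.16, and without HFD replicate 3 the estimate was 0.33 and still did not pass. Cxcr3 passed p under 0.05 with all 8 arrays when an offset of 64 was added before the log or when the prior variance followed the signal. The estimates of the receptor and of its ligands thus had opposite signs, and the difference between them was not tested. Of the inducers of these genes, Irf8, an interferon-responsive transcription factor of myeloid cells, fell by 0.61 on the log2 scale (limma adjusted p = 0.42) and Il1a, the alarm cytokine interleukin 1 alpha, by 0.76 (adjusted p = 0.379). These, at percentiles 37.6 and 34.9, were the 2 of 17 measured inducers that passed. Among all genes, 6.90% were lower by the same rule. Ifng, the interferon made by T cells and NK cells, had 0.07 (adjusted p = 0.942), on a dim probe set at percentile 11.9. Tnf had -0.03 (adjusted p = 0.965), at percentile 39.5.

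The sequences before the start sites of the interferon-inducible genes are shown because these ligands are textbook targets of interferon and NF-kappaB signalling. They are the 250 bases upstream of the RefSeq start in GRCm38.p6, 5′ to 3′ on the gene's strand, minus for both: chr5:92348890-92349139 for Cxcl10 and chr5:92328080-92328329 for Cxcl9. Capitals mark every match, on either strand, of GGGNNNNNCC (kappaB), GAAANNGAAA (the interferon-stimulated response element, ISRE) or TTCNNNGAA (STAT).
Cxcl10: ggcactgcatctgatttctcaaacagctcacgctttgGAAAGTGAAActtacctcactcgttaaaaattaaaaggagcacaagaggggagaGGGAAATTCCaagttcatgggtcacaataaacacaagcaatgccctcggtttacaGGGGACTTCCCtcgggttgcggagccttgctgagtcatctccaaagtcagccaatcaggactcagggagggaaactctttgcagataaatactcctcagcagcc
Cxcl9: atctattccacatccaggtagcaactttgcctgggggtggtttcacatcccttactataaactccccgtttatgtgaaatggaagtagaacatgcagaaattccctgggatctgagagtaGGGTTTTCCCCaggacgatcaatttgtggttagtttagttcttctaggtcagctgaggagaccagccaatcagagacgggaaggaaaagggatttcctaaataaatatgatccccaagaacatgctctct
Cxcl10 held an ISRE match from position -213 (the start site being the base after -1) and kappaB matches from -159, -104 and -103, the last 2 overlapping. Cxcl9 held overlapping kappaB matches from -130 and -129 and no ISRE or STAT match in these letters. Of the 52 genes, 38 had a promoter in the table, among them 5 of the 10 called genes (Ccl19, Ccr2, Ccl12, Ccl6 and Cxcl14), and Cxcl11 was not among them. The kappaB letters were in 23 of the 38, against 45.8% of 32851 promoters of the same length, the ISRE letters in 3 (Ccl19, Cxcl10 and Cxcl14), against 2.98%, and the STAT letters in 4, against 7.02%. Here a gene counted if any of its promoters matched (40 promoters for the 38 genes), whereas the percentages are of single promoters.

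Ccl2, Ccl7, Ccl8 and Ccl12 were grouped as CCR2 ligands and their gene neighbours. Of these, 2 of 4 rose and 0 fell, while Ccr2, the receptor of Ccl2, Ccl7 and Ccl12, fell. Ccl12, a mouse CCR2 ligand also known as MCP-5, had log2 signals of 4.75, 5.57, 5.19 and 5.97 in HFD and 6.17, 6.09, 5.97 and 6.87 in HFD+WBM. HFD replicate 4 and HFD+WBM replicate 3 met at 5.97, and the other livers were apart. Ccl12 was 1.87-fold higher (log2 0.90, SE 0.29, 95% confidence interval 0.25 to 1.55), at percentile 18.9. Without HFD replicate 4 or without HFD+WBM replicate 3 it was the 1 chemokine gene past both thresholds of the study. Ccl7, or MCP-3, had 7.55, 8.14, 7.66 and 7.82 in HFD and 8.10, 8.25, 8.41 and 8.10 in HFD+WBM. HFD replicate 2 lay within the HFD+WBM range, and the other 3 HFD livers lay below it. Ccl7 was 1.34-fold higher (log2 0.42, SE 0.17, 95% confidence interval 0.04 to 0.80), at percentile 64.9, and did not pass without any one of 5 livers (HFD 1, 3 and 4, HFD+WBM 2 and 3).

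Ccl2, or MCP-1, the principal CCR2 ligand, had nearly equal means of 7.41 ± 0.32 in HFD and 7.47 ± 0.20 in HFD+WBM (SD, n = 4 each). Its log2 difference was 0.06 with a 95% confidence interval of -0.37 to 0.50, at percentile 53.8. Ccl8, or MCP-2, had 0.35 (95% confidence interval -0.19 to 0.88) at percentile 13.9. The 4 genes of this group had a median log2 change of 0.38. Their mean lay between 6.15 and 6.80 in HFD mice and between 6.72 and 7.03 in HFD+WBM mice.

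Ccr2, the receptor that lets monocytes leave the marrow and enter tissue, had 6.26, 5.87, 6.16 and 6.73 in HFD and 5.55, 6.15, 5.03 and 5.65 in HFD+WBM. HFD+WBM replicate 2 lay among the HFD livers and the other 3 lay below all of them. Ccr2 was 1.58-fold lower (log2 -0.66, SE 0.26, 95% confidence interval -1.25 to -0.08), on a dim probe set at percentile 20.8. It did not pass without HFD replicate 1 or 4 or without HFD+WBM replicate 1 or 3, where the estimate lay between -0.66 and -0.47. The opposite directions of Ccr2 and of its ligands Ccl7 and Ccl12 were not tested against each other.

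**Figure D3:**
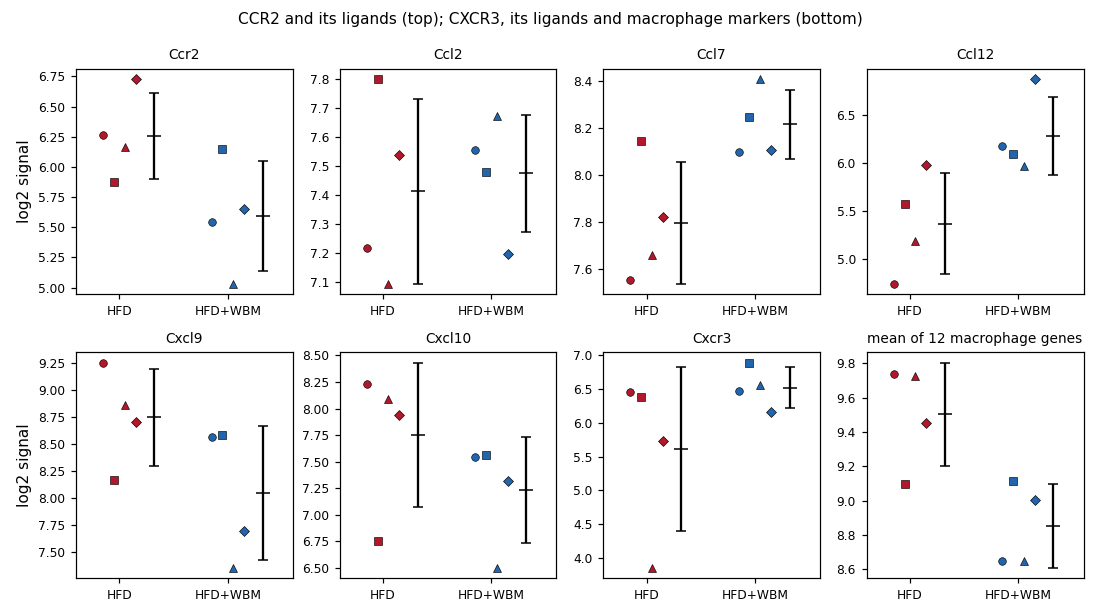
Log2 signal of each mouse for Ccr2 and its ligands Ccl2, Ccl7 and Ccl12 (top) and for Cxcl9, Cxcl10, their receptor Cxcr3 and the mean of 12 macrophage marker genes (bottom), with circle, square, triangle and diamond for replicates 1 to 4, red for HFD, blue for HFD+WBM, and mean ± SD beside them. Each panel has its own axis. Ccr2 and the macrophage genes lie lower and Ccl7 and Ccl12 higher in HFD+WBM mice, and Cxcr3 has 1 HFD liver at 3.85.

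Among the inflammatory CC chemokines, which include the CCR1 ligands and the eotaxins, 1 of 8 fell and 1 rose. Ccl6, a mouse CCR1 ligand made by macrophages and other myeloid cells, had 8.51, 8.03, 8.51 and 8.71 in HFD and 7.29, 7.97, 7.65 and 7.84 in HFD+WBM. All HFD+WBM livers were below all HFD livers. Ccl6 was 1.68-fold lower (log2 -0.75, SE 0.20, 95% confidence interval -1.21 to -0.29), at percentile 65.9. It passed in all 20 settings tried. Ccl9, its neighbour on chromosome 11 and also a CCR1 ligand, was the brightest of the 52 genes, at percentile 94.9. Its values were 10.44, 10.81, 10.78 and 10.82 in HFD and 10.81, 10.55, 10.74 and 10.96 in HFD+WBM. The groups lay on top of each other, with a log2 difference of 0.05 (95% confidence interval -0.30 to 0.40). The confidence intervals of the neighbours, -1.21 to -0.29 for Ccl6 and -0.30 to 0.40 for Ccl9, met end to end, and the difference between the genes was not tested.

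The promoters of this pair are shown as an example of adjacent genes of 1 family with unlike values. Both are on the minus strand, chr11:83593088-83593337 for Ccl6 and chr11:83578637-83578886 for Ccl9, with capitals as above.
Ccl6: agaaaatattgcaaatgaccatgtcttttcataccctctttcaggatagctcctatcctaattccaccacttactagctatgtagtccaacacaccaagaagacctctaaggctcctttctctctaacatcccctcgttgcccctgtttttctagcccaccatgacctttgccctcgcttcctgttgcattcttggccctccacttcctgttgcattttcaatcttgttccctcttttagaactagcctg
Ccl9: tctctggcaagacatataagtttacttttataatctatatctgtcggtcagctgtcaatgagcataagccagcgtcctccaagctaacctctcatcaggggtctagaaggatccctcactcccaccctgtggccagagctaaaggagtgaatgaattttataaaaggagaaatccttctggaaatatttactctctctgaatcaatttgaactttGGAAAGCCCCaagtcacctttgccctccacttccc
No match to the 3 motifs was found for Ccl6, and Ccl9 held 1 kappaB match from position -35.

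Ccl26, or eotaxin-3, had 6.31, 6.54, 5.64 and 6.21 in HFD and 6.36, 7.09, 7.16 and 6.66 in HFD+WBM. The HFD+WBM livers were higher except replicate 1, which lay within the HFD range. Ccl26 was 1.56-fold higher (log2 0.64, SE 0.25, 95% confidence interval 0.09 to 1.19), at percentile 32.6, and HFD replicate 3 was its lowest liver. Without that array the estimate was 0.46 and did not pass, nor did it pass without HFD+WBM replicate 2 or 3. The other eotaxins did not pass, with 0.12 for Ccl11 (percentile 34.9) and -0.30 for Ccl24 (percentile 26.9). Nor did Ccl3 (-0.27, percentile 17.2), Ccl4 (-0.03, percentile 33.6) and Ccl5 (-0.14, percentile 50.7), products of activated macrophages, T cells and NK cells.

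Neighbouring genes are given side by side, and the differences among them were not tested. In the run Ccl2, Ccl7, Ccl11, Ccl12, Ccl8 and Ccl1, between which RefSeq places no other protein-coding gene, log2 changes were 0.06, 0.42, 0.12, 0.90, 0.35 and -0.09. In the run Ccl5, Ccl9, Ccl6, Ccl3 and Ccl4 they were -0.14, 0.05, -0.75, -0.27 and -0.03.

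Of the CC chemokines of lymphocytes, dendritic cells and mucosa, 1 of 7 measured genes fell. Ccl19, the CCR7 ligand that leads dendritic cells and naive T cells into lymphoid tissue, had 7.56, 7.74, 7.47 and 7.74 in HFD and 7.19, 7.00, 7.36 and 6.77 in HFD+WBM. The groups did not overlap. Ccl19 was 1.46-fold lower (log2 -0.55, SE 0.17, 95% confidence interval -0.92 to -0.17), at percentile 51.9, and passed in all 20 settings. It is named by 5 probe sets: 3 with identical values gave -0.64 and passed p under 0.05, and the remaining one gave -0.52 and did not, so that the copies of this gene are not told apart. The 4 probe sets that name several Ccl21 genes at once, the other CCR7 ligand, are outside the rule and gave -0.52 with identical values, which did not pass. Ccr7 itself, at percentile 67.8, had 8.08, 8.04, 8.05 and 8.02 in HFD and 8.56, 8.48, 8.22 and 7.93 in HFD+WBM. Its HFD livers were within a narrow range and the HFD+WBM livers lay on both sides, with a difference of 0.25 (95% confidence interval -0.12 to 0.63).

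The other 6 genes of this group did not pass. Estimates were 0.45 for Ccl20, the CCR6 ligand, 0.21 for Ccl22 and 0.03 for Ccl17, the CCR4 ligands, 0.05 for Ccl28, -0.09 for Ccl1 and -0.26 for Ccl25. In that order the genes stood at percentiles 55.5, 22.4, 20.4, 47.7, 21.9 and 34.8. Ccl25 has a second, dimmer probe set with an estimate of 0.28, which did not pass either. HFD replicate 3 lowered the HFD mean of Ccl20 (6.33 against 7.47 to 7.90 in the other HFD livers), and without it the estimate was 0.13. The 3 probe sets that name several Ccl27 genes at once gave -0.19 or -0.04.

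Neutrophil chemokines did not pass in either direction, with 0 of 5. Cxcl1, also called KC, a CXCR2 ligand induced in injured hepatocytes and stellate cells, had 8.35, 8.37, 8.36 and 8.20 in HFD and 8.12, 8.38, 9.04 and 8.14 in HFD+WBM. Apart from HFD+WBM replicate 3 at 9.04 the livers lay close together, with a log2 difference of 0.10 (95% confidence interval -0.38 to 0.57) at percentile 71.1. Estimates were 0.40 for Cxcl2 (95% confidence interval -0.13 to 0.94), 0.29 for Cxcl3, 0.26 for Cxcl5 and -0.41 for Cxcl15 (95% confidence interval -0.87 to 0.05). In that order the genes stood at percentiles 10.9, 33.8, 17.5 and 6.3. The receptors of this group had 0.30 (Cxcr2, percentile 36.6) and 0.07 (Cxcr1, percentile 41.7).

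Of the remaining CXC, CX3C and XC ligands, 1 of 7 fell and 2 rose. Cxcl16, a membrane-bound ligand of CXCR6 that also takes up oxidized lipoprotein, had 8.15, 7.84, 8.16 and 8.03 in HFD and 7.67, 7.82, 7.25 and 7.19 in HFD+WBM. The groups did not overlap, although HFD replicate 2 (7.84) and HFD+WBM replicate 2 (7.82) nearly met. Cxcl16 was 1.48-fold lower (log2 -0.56, SE 0.18, 95% confidence interval -0.97 to -0.15), at percentile 60.3, and passed in all 20 settings. Its receptor Cxcr6, at percentile 39.3, had 0.02 (95% confidence interval -0.46 to 0.49).

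Cxcl17, a mucosal chemokine of macrophages, was among the brightest of the 52 genes at percentile 85.9. It had 9.06, 9.34, 9.14 and 9.31 in HFD and 9.57, 9.77, 9.39 and 9.95 in HFD+WBM. All HFD+WBM livers were above all HFD livers, the 1 upward separation in the family. Cxcl17 was 1.37-fold higher (log2 0.46, SE 0.16, 95% confidence interval 0.09 to 0.82), and did not pass without HFD replicate 1 or without HFD+WBM replicate 2 or 4, where the estimate lay between 0.36 and 0.42. Cxcl14, a chemokine of epithelia and adipose tissue, had 6.55, 6.84, 6.62 and 6.19 in HFD and 7.01, 7.13, 7.13 and 6.76 in HFD+WBM. HFD+WBM replicate 4 was just under HFD replicate 2, and the other livers were apart. Cxcl14 was also 1.37-fold higher (log2 0.46, SE 0.18, 95% confidence interval 0.06 to 0.85), at percentile 38.9. It did not pass without HFD replicate 4 or without HFD+WBM replicate 1, 2 or 3.

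Ccl19 and Cxcl14 changed in opposite directions, and both hold the ISRE letters. Their promoters are shown for comparison with that of Cxcl10, both on the minus strand, chr4:42756366-42756615 for Ccl19 and chr13:56296552-56296801 for Cxcl14, with the same capitals.
Ccl19: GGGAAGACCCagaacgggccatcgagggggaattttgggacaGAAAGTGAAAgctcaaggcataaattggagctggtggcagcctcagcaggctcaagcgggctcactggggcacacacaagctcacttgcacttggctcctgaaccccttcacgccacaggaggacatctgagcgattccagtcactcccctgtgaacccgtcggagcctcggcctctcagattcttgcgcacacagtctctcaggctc
Cxcl14: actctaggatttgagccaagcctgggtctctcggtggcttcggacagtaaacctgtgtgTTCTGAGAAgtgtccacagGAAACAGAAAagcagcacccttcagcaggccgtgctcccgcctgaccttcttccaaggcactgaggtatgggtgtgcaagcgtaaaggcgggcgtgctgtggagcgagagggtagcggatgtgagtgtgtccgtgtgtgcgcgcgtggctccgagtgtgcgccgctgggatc
The ISRE match began at -208 in Ccl19, with the same letters as in Cxcl10, and at -172 in Cxcl14. Ccl19 also held a kappaB match from -250 and Cxcl14 a STAT match from -191.

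Cxcl12, the ligand of CXCR4 made by stromal and endothelial cells, was the second brightest gene, at percentile 91.0. It had 10.31, 9.91, 9.69 and 9.75 in HFD and 9.98, 10.47, 9.92 and 10.29 in HFD+WBM. The groups overlapped, with a difference of 0.25 (95% confidence interval -0.19 to 0.69). Cx3cl1, or fractalkine, had 0.18, Xcl1, or lymphotactin, 0.08, and Cxcl13, the B cell chemokine, 0.02. In that order the genes stood at percentiles 29.1, 18.1 and 50.2. Cxcl13 spread from 5.98 to 8.80 in HFD mice but only from 7.17 to 7.52 in HFD+WBM mice.

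**Figure D4:**
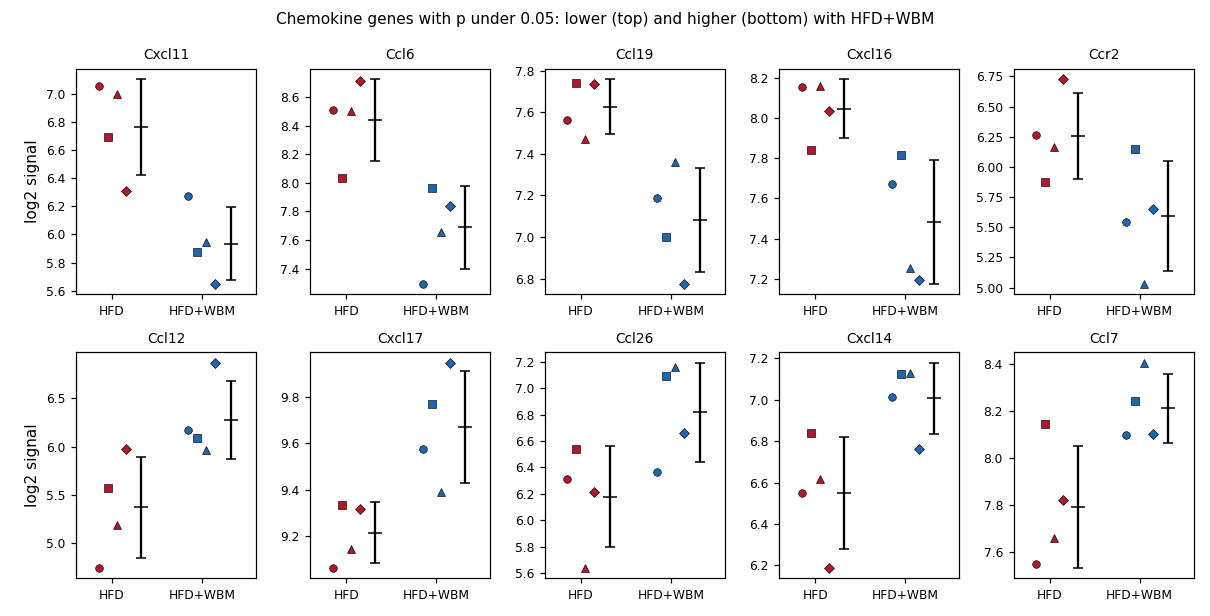
Log2 signal of each mouse for the 5 chemokine genes lower (top) and the 5 higher (bottom) in HFD+WBM livers at p under 0.05, with circle, square, triangle and diamond for replicates 1 to 4 and mean ± SD beside them. Each panel has its own axis. The groups are apart for Cxcl11, Ccl6, Ccl19, Cxcl16 and Cxcl17 and touch or overlap for the others.

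Receptors were dim, and 1 of 18 passed. Of the receptors of myeloid cells, Ccr1 had -0.39 (95% confidence interval -1.09 to 0.31) and Ccr3, the eosinophil receptor, -0.34 (95% confidence interval -1.31 to 0.63), and they stood at percentiles 5.0 and 4.8. Ccr1l1 had 0.05 and Cx3cr1, the fractalkine receptor of patrolling monocytes, 0.01, at percentiles 9.2 and 39.0. Among the receptors of lymphocytes and dendritic cells, 0 of 11 passed. Ccr4, the receptor of CCL17 and CCL22, had the widest spread of the family: HFD values were 5.30, 4.73, 0.08 and 4.57 and HFD+WBM values 2.66, 5.01, 5.62 and 4.92. Its estimate of 0.88 (95% confidence interval -1.57 to 3.33) was -0.31 without HFD replicate 3. Ccr4 stood at percentile 3.0. The others had 0.28 (Xcr1), 0.24 (Ccr8), 0.19 (Ccr10), 0.12 (Ccr6), 0.08 (Cxcr4), 0.04 (Ccr9) and -0.25 (Cxcr5). In that order these stood at percentiles 22.9, 5.1, 37.7, 23.8, 50.2, 15.6 and 3.3. Cxcr7 was not analysed here.

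Chemokine-related genes outside the symbol rule were read for comparison, and 2 of 11 fell. Beside this and the next counts, 6.90% of all genes were lower and 4.85% higher by the same rule. Pf4, platelet factor 4, a CXC chemokine without the Cxcl name, had 5.59, 5.51, 5.31 and 5.47 in HFD and 4.89, 4.74, 4.58 and 4.84 in HFD+WBM. It was 1.63-fold lower with no overlap (adjusted p = 0.348) but dim. Cmklr1, the chemerin receptor of macrophages, fell by 0.47 on the log2 scale (adjusted p = 0.389). Below the receptors, 2 of 25 signalling genes fell and 1 rose: Rac2, a GTPase of leukocyte movement (-0.67, adjusted p = 0.366), Rgs2, a brake on G proteins (-0.86, adjusted p = 0.399), and Arrb1, the arrestin that removes receptors from the surface (0.44, adjusted p = 0.383). Of 10 leukocyte adhesion genes 1 fell, Itgal, the alpha chain of LFA-1 (-0.60, adjusted p = 0.4).

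Markers of the cells that make or follow chemokines differed in part between the diets. The counts of these and the following marker lists stand beside 6.90% lower and 4.85% higher among all genes. Of 12 macrophage markers, Kupffer cell genes included, 10 were lower and 0 higher, with a median log2 change of -0.67. Among them were Clec4f (-0.52, adjusted p = 0.37), a Kupffer cell lectin, Adgre1 (-0.71, adjusted p = 0.399), which encodes F4/80, and C1qc (-0.80, adjusted p = 0.363). Their mean lay between 9.10 and 9.74 in HFD mice and between 8.65 and 9.11 in HFD+WBM mice. Of 10 markers of monocytes and recruited macrophages, 2 were lower, Lyz2 (-0.76, adjusted p = 0.368) and Fcgr1 (-0.78, adjusted p = 0.37), with means from 6.37 to 6.87 and from 6.16 to 6.41. Between the diet groups, macrophage markers were thus lower, as were Ccr2, Ccl6, Ccl19, Cxcl11 and Cxcl16. Ccl7, Ccl12, Ccl26, Cxcl14 and Cxcl17 were higher. Agreement mouse by mouse was not tested, nor was the part of these markers in the chemokine results.

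Among the other lists, 4 of 12 stellate cell markers were lower, the collagen genes Col1a1 (-0.97), Col1a2 (-0.72) and Col3a1 (-0.82) and Lrat (-0.56), the retinol-esterifying enzyme of these cells. Of 10 sinusoidal endothelial markers 2 were lower, Lyve1 (2.00-fold, with no overlap), a hyaluronan receptor, and Cdh5 (-0.51), which encodes VE-cadherin, and of 7 dendritic cell markers 1 was lower, Flt3 (-0.69). Their part in the chemokine results was not tested. Of 11 T cell markers 1 was lower (Zap70, -0.45) and 1 higher (Cd247, 0.83), and 1 of 11 neutrophil markers (Elane, 0.55) and 1 of 7 B cell markers (Pax5, 0.63) were higher. Of 9 NK cell, 11 hepatocyte and 5 cholangiocyte markers 0 passed in either direction. Levels of the defining genes were 14.10 for Alb, the hepatocyte product albumin, 9.86 for Clec4f, 8.81 for Adgre1, 8.47 for S100a8 of neutrophils (0.45, adjusted p = 0.502), 6.69 for Cd3e of T cells (-0.14, adjusted p = 0.834) and 4.37 for Ncr1 of NK cells (-0.29, adjusted p = 0.809). No marker was at 0 in any liver, the lowest log2 signal being 2.74 (Chil3). The Alb probe set stood at percentile 99.99.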

How the data were processed

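Labels and titles gave each array its diet and replicate number. IterPLIER in Affymetrix Power Tools 1.8.6 had been run by the authors for background correction, normalization and summary, and their deposited table holds log2 signals of 28944 probe sets. An offset before the log and detection calls were not given, so a low signal carries no background limit. Of these, 21789 name 1 gene in the platform annotation, 1621 name several and 5534 are unnamed here, and the brightest probe set per gene left 19938 genes. Diet was tested with lmFit and eBayes (limma 3.58.1, R 4.3.3), with Benjamini-Hochberg adjustment over all genes, and for single genes with an exact two-sided permutation test. The test was first tried on simulated data. Alternatives were another scaling, offsets of 16 and 64, the brightest 50% of genes, other probe set rules and variance models, a replicate block, other thresholds and leaving out each mouse.

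Members, role lists and marker lists were chosen with earlier results of these data known. Per-mouse values are given for genes with p under 0.05, without overlap or at least 2-fold, and for the 8 brightest, and outside this rule for Cxcl10, Cxcr3 and Ccr4, chosen after their values were seen. Of the other lists, genes with p under 0.05 are named, at most 4. Promoters come from RefSeq (GRCm38.p6), 250 bases before the start. Mice are taken as separate animals from the labels, and their number, 4 per diet, limits the precision.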

Additional observations from a re-analysis of the deposited data

Results flagged for a closer look

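Of 104 groups of 4 livers (52 genes, both diets), 8 had 1 liver far from the other 3 by Dixon's criterion, which chance gives in about 1 of 20 groups. In the HFD group these were Ccr4 in replicate 3, at 0.080 against 4.57 to 5.30 in the others, Ccl9 in replicate 1, at 10.44 against 10.78 to 10.82, and Cxcl1 in replicate 4, at 8.20 against 8.35 to 8.37. In the HFD+WBM group Ccl25 in replicate 1 was at 6.02 against 6.56 to 6.65. HFD+WBM replicate 3 gave 3 of them, Ccl28 at 7.73 against 6.96 to 7.06, Ccr9 at 4.37 against 6.02 to 6.12 and Cx3cl1 at 5.74 against 6.62 to 6.69. Ccr8 in HFD+WBM replicate 4 was at 2.98 against 5.13 to 5.36. None of these 8 genes was among the 10 with p under 0.05.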

How the results depend on the processing

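Ccl6, Ccl19 and Cxcl16 passed p under 0.05 in all 20 alternatives, and Cxcl11 and Ccl12 in all 19 that hold them. The count of lower chemokine genes was 5, and 3 at p under 0.01, with 4 to 7 when 1 mouse was left out. For all genes these were 1375, 349 and 904 to 1366. The count of higher ones was 5, with 2 among the 50% brightest genes, which leave 16 of the 52, 0 at p under 0.01, and 1 to 6 when 1 mouse was left out, the lowest without HFD+WBM replicate 2. For all genes these were 966, 725, 186 and 683 to 1057. Past both thresholds the count of 0 became 5 with a 1.5-fold threshold and 0 to 1 when 1 mouse was left out. The counts of all genes at these settings are not given here, so these chemokine counts cannot be read against a background. The log2 change of Ccl9 ran from -0.038 to 0.12 and that of Cxcl1 from -0.11 to 0.20 when 1 mouse was left out. Over the alternatives for the 10 called genes and the other 5 of the rule for per-mouse values, 259 estimates kept direction and side of the threshold, 25 lost the call, 8 gained it and 3 changed sign (Ccl9 and Cxcl1 with 1 mouse left out). Cxcl9 gained it with either offset, among the brightest genes, when the prior variance followed the signal, and without HFD 2, HFD+WBM 1 or HFD+WBM 2. Replicate numbers did not pair the mice (correlations of deviations -0.12 to -0.02). A replicate block gave 5 lower and 4 higher chemokine genes, and Ccl7 lost the call. For all genes the block gave 1009 lower and 748 higher, against 1375 and 966 without it. After adjustment in limma, 139 of all genes passed when the prior variance followed the signal, 80 and 2 with offsets of 64 and 16, and 19 among the brightest, with 0 chemokine genes in each. The median SD within groups, 0.42 for the 36 chemokine genes below the median level, limits what dim genes, most receptors among them, can show.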
